A study of Mus musculus with 12 samples.

Results

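The Siglec and Cd300 receptors are surface proteins of myeloid and lymphoid cells that bind sialic acid or membrane lipids. They were taken by symbol from the deposited table of read counts, leaving out Siglech, a microglial Siglec. These are 10 of 56735 genes, of which 6 are Siglecs (Siglec1, Siglece, Siglecf, Siglecg, Cd33 and Cd22) and 4 are Cd300 genes (Cd300a, Cd300c2, Cd300ld and Cd300lf). All 10 passed the filter on low counts and were among the 13724 genes tested. In GRCm39, the build of the counts, Siglec1 lies on chromosome 2 (chr2:130911140-130928685, minus strand), the other Siglecs on chromosome 7, such as Siglecf at chr7:43000765-43008955 (plus strand), and the Cd300 genes on chromosome 11, such as Cd300lf at chr11:115007040-115024818 (minus strand).

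Bulk RNA-seq was run on 12 libraries of CD206+ macrophages of the brain's borders (subdural CNS-associated macrophages, or sdCAMs), which live in the leptomeninges and around vessels, sorted from mouse brain after the choroid plexuses were removed. All mice were Mrc1CreERT2/CreERT2:R26tdT/tdT and received tamoxifen, which switches on the red reporter tdTomato (tdT) in cells that then express Mrc1. They were later dosed for 7 days with vehicle or with 200 mg/kg of BLZ945, an inhibitor of the CSF-1 receptor that depletes these macrophages, and cells were sorted 8 weeks after dosing. The 3 groups of 4 libraries were tdT+ cells of vehicle mice, tdT+ cells of BLZ945 mice and tdT− cells of BLZ945 mice. The libraries carry the labels F1, F2, M1 and M2. In BLZ945 mice the tdT+ and tdT− libraries with the same label came from the same mouse, whereas the vehicle mice were other animals. Every group carries the Cre in both copies of the Mrc1 locus, so none shows Mrc1 wild-type cells, and a tdT− sort can also hold cells that escaped recombination.

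Siglecs read the sialic acid that caps the sugars of cell surface proteins and lipids. Many carry an immunoreceptor tyrosine-based inhibitory motif (ITIM) in the cytoplasmic tail, which recruits the phosphatases SHP-1 (Ptpn6) and SHP-2 (Ptpn11) and dampens activation. Members of the Cd300 family bind phospholipids and other lipids, such as phosphatidylserine on dying cells, and come in inhibitory and activating forms. The activating forms have short tails and signal through adaptors with an activating motif (ITAM), such as DAP12 (Tyrobp) and the Fc receptor gamma chain (Fcer1g). Siglec1, known as CD169, is an endocytic and adhesive receptor of tissue macrophages without an ITIM.

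The coding sequences were searched for inhibitory motifs and for charged residues in the membrane, which in activating receptors often contact an adaptor. The search used a single GENCODE M21 coding sequence per gene, the longest of those tagged as principal isoforms where any were. Other isoforms were not searched. The tail was read as the residues after the most hydrophobic stretch of 19 residues. The ITIM was read as I, L, V or S, any residue, Y, any 2 residues, and L, I or V. By this rule Cd22 held 4 matches, Siglecg 3, Siglecf, Cd300a and Cd300lf 2 each and Siglece 1. Siglec1, Cd33, Cd300c2 and Cd300ld held none. Siglecf, Cd33 and Cd300c2 each had 1 basic residue inside the hydrophobic stretch, and Cd300ld had 1 acidic residue there. The tail of Siglec1 counted 37 residues and that of Cd300c2 19. Siglece, Siglecf, Cd300a and Cd300lf are shown with the codons of an ITIM match in capitals, Cd33, Cd300c2 and Cd300ld with the codon of the charged residue in capitals, and Siglec1 by its last 60 coding bases, which hold no tyrosine codon.
Siglec1: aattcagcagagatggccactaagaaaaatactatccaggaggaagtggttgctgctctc
Siglece: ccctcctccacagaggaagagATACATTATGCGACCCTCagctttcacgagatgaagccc
Siglecf: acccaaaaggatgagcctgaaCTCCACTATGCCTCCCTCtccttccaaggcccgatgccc
Cd300a: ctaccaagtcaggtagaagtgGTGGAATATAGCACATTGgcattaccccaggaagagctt
Cd300lf: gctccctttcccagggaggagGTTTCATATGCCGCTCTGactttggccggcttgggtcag
Cd33: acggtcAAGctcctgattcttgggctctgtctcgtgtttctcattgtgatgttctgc
Cd300c2: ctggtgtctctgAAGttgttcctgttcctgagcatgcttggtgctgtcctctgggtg
Cd300ld: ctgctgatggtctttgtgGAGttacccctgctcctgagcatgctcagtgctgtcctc
All are 5′ to 3′ on the coding strand in GRCm38. The Siglece stretch is chr7:43651564-43651623 on the minus strand, Siglecf chr7:43358649-43358708 on the plus strand, Cd300lf chr11:115117091-115117150, Cd300c2 chr11:114996948-114997004 and Cd300ld chr11:114984216-114984272, these last 3 on the minus strand. The Siglec1, Cd33 and Cd300a stretches cross an exon junction.

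Libraries held between 19969308 and 23395058 counts, and 3 counts, the detection floor used here, equal 2.60 to 3.16 normalised counts. The reporter could not be checked, since no tdTomato counts were found for any of the 12 libraries. Of the marker lists of other cells and of sdCAMs, the 8 sdCAM markers, among them Cd163 and Pf4, summed to between 199764 and 285834 normalised counts in tdT+ libraries and to between 79117 and 130566 in tdT− libraries. The 6 microglia markers, among them P2ry12 and Sparc, summed to between 46907 and 104635 in tdT+ and to between 212440 and 457232 in tdT− libraries. Neither list had a gene at 0 in all libraries. In the tdT− library F2 the 7 neutrophil markers summed to 422981, led by S100a8 and Ngp, against at most 69.4 in any other library. The 6 monocyte markers summed to 42412 there, against at most 429 in the other tdT− and 89.3 in tdT+ libraries. The 5 red blood cell markers summed to 36171, against up to 15807 in BLZ945 tdT+ and 8778 in vehicle libraries. Mast cell markers and T and NK cell markers were also highest in this library, at 272 and 680. In these bulk samples fewer cells of a type and less RNA per cell cannot be told apart.

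Across the 10 receptors, Siglec1 was the member whose level differed between the groups by the DESeq2 Wald test. In tdT− against tdT+ cells of BLZ945 mice, 1 of 10 members passed (adjusted p no higher than 0.05 across the 13724 genes), against 6.33% of all genes. That member was also a DEG, meaning that its shrunken log2 fold change also reached 1 in either direction, against 2.24% of all genes. Siglec1 alone passed in tdT− cells against vehicle tdT+ cells too, where 6.76% of all genes passed and 2.55% were DEGs. In BLZ945 tdT+ against vehicle tdT+ cells 0 of 10 members passed, against 0.955% of all genes. There 1 member, Cd300ld, had an unadjusted p under 0.05, against 8.08% of all genes, and the quasi-likelihood test of edgeR called 0, against 0.0656%. The groups did not overlap for 3 members in tdT− against BLZ945 tdT+ cells (Siglec1, Siglecf and Cd300c2), against 9.35% of all genes, and for Siglec1 in tdT− against vehicle cells, against 9.7%. Counts of 1 or 0 among 10 genes lie close to these backgrounds. Each pair of comparisons shares 1 group of libraries.

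**Figure D1:**
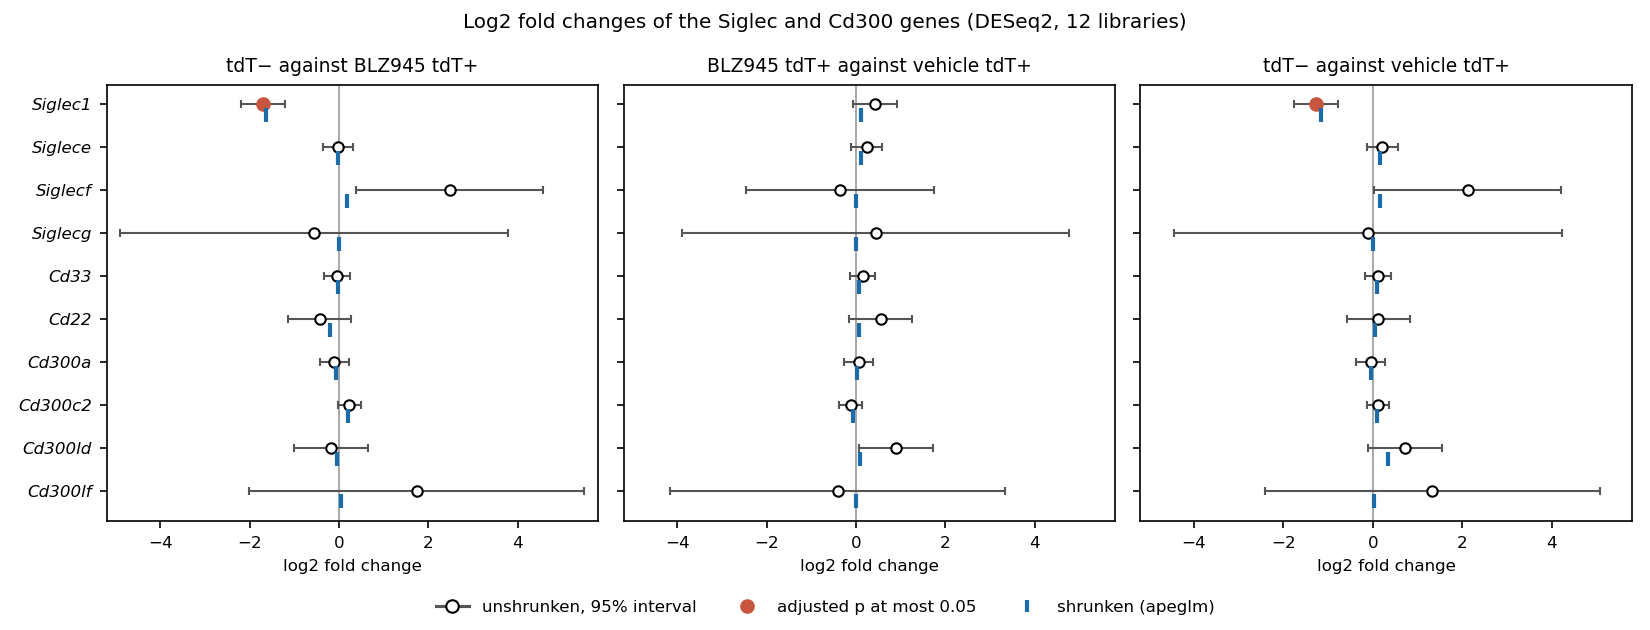
Log2 fold change (x axis) of each gene in the 3 comparisons. Points are unshrunken DESeq2 estimates with 95% intervals, blue ticks are shrunken values, and filled red points passed the test. Siglec1 stood at −1.70 in tdT− against BLZ945 tdT+ cells and at −1.27 against vehicle, and the intervals of Siglece, Cd33, Cd300a and Cd300c2 were narrow around 0.

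Siglec1 was about 3 times lower in tdT− cells than in tdT+ cells of the same mice. Its normalised counts were 8757, 6512, 8339 and 6396 in the BLZ945 tdT+ libraries F1, F2, M1 and M2, and 2522, 3655, 1669 and 1372 in the tdT− libraries of the same mice. Vehicle tdT+ libraries held 6603, 5691, 5105 and 4780.03. All tdT− libraries lay below all tdT+ libraries, as for 4.79% of all genes within BLZ945 mice. The tdT− library F2, with its neutrophil and monocyte transcripts, was the highest of its group. The mean was 2304 ± 1024 in tdT−, 7501 ± 1221 in BLZ945 tdT+ and 5545 ± 800 in vehicle tdT+ cells (SD, n = 4).

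Within each mouse the tdT+ library held 3.47 (F1), 1.78 (F2), 5.00 (M1) and 4.66 (M2) times the Siglec1 level of the tdT− library. The shrunken log2 fold change was −1.63 ± 0.26 (SE, adjusted p = 2.37e-09, DESeq2) against BLZ945 tdT+ and −1.17 ± 0.26 (adjusted p = 2.95e-05) against vehicle tdT+ cells. Unshrunken, Siglec1 was 3.25-fold lower than in BLZ945 tdT+ cells (95% interval 2.31 to 4.58) and 2.41-fold lower than in vehicle cells (1.71 to 3.39). Without the tdT− library F2 the shrunken values were −1.97 and −1.53. Siglec1 passed in all 19 alternatives of both comparisons, of which the unshrunken fold change keeps the p of the main fit and could not differ. Without the tdT− library M2 the value against vehicle was −0.998 and just missed the fold change of a DEG. The sdCAM marker sum was also lower, and the microglia marker sum higher, in every tdT− than in every tdT+ library, and their part in the Siglec1 result was not tested.

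Between the tdT+ groups Siglec1 was not separated. The BLZ945 tdT+ libraries F2 and M2 lay below the vehicle library F1, and the unshrunken log2 fold change was 0.44 with an interval from −0.06 to 0.93 (adjusted p = 0.758, DESeq2).

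**Figure D2:**
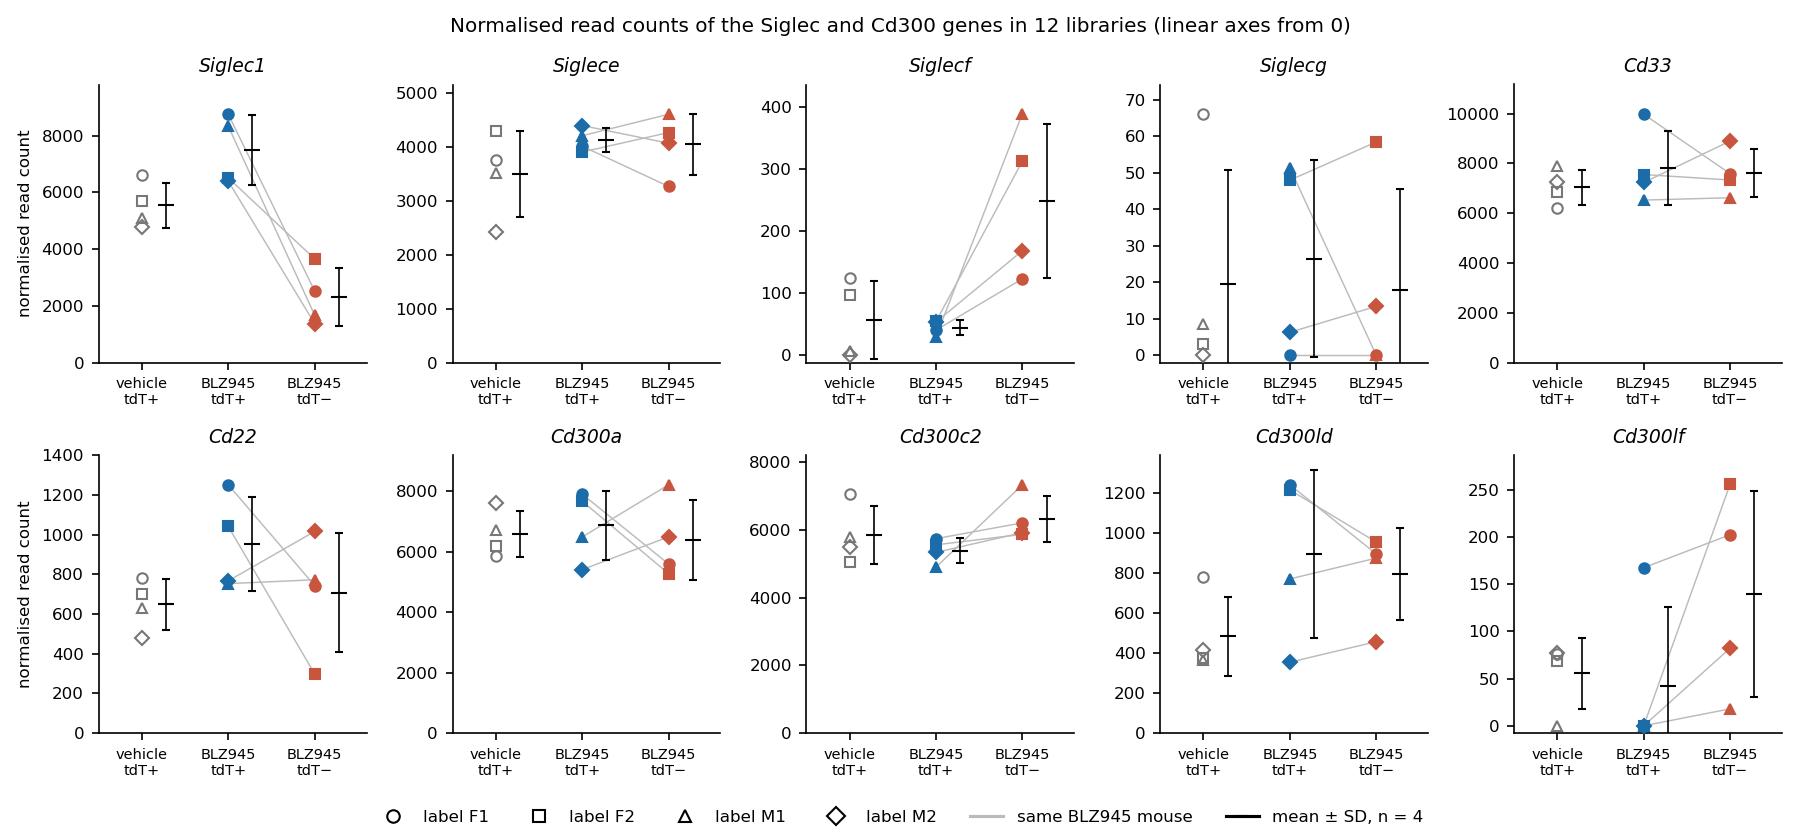
Normalised read count (y axis, linear) of each gene in the vehicle tdT+, BLZ945 tdT+ and BLZ945 tdT− libraries. Symbols give the mouse label, grey lines join libraries of the same BLZ945 mouse, and black bars are means ± SD (n = 4), which leave the panel where the SD exceeds the mean. Siglec1 was lower in the tdT− library of each of the 4 mice, at 2522 against 8757 in F1 and 1372 against 6396 in M2, and Siglecf was higher in the tdT− library of each mouse.

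Siglecf, an ITIM-bearing Siglec best known from eosinophils and alveolar macrophages, was low everywhere and highest in tdT− cells. Its normalised counts were 123, 313, 389 and 168 in the tdT− libraries F1, F2, M1 and M2 and 40.5, 54.4, 29.7 and 53.5 in the tdT+ libraries of the same mice. Vehicle libraries held 124, 97.1, 6.93 and 0. The tdT− and tdT+ libraries of BLZ945 mice did not overlap, as for 4.56% of all genes in this direction, whereas the vehicle library F1 reached into the tdT− range.

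The tdT− library held between 3.04 and 13.1 times the Siglecf level of the tdT+ library of the same mouse, higher in 4 of 4 mice. In the model with all 12 libraries the difference did not pass. The unshrunken log2 fold change was 2.48 with an interval from 0.38 to 4.57, the shrunken one 0.17 ± 0.36, and the adjusted p 0.179 (DESeq2) or 0.403 (edgeR). With the mouse as a replicate block it passed, as did 7.13% of all genes, with a shrunken value of 1.85 and an adjusted p of 0.0109 (DESeq2), as it did without the vehicle library M2, which held 0 counts (1.86, adjusted p = 0.0249), and on the 8 libraries of BLZ945 mice (2.18, adjusted p = 9.83e-04). Over all 19 alternatives the adjusted p lay between 9.83e-04 and 0.403, with 3 past the test. Of the 5 eosinophil markers, Epx and Il5ra were at 0 in all libraries. The list summed to between 0 and 369 in tdT−, 34.9 and 1053 in BLZ945 tdT+ and 217 and 395 in vehicle libraries. As for Siglec1, the microglia marker sum was higher and the sdCAM marker sum lower in every tdT− than in every tdT+ library. The part of these marker sums in the Siglecf result was not tested.

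Neither Siglece nor Cd33 passed the test in any comparison, and their intervals were narrow. Siglece, an inhibitory Siglec of mouse myeloid cells, held 4012, 3903, 4206 and 4395 normalised counts in BLZ945 tdT+ libraries F1, F2, M1 and M2 and 3266, 4265, 4604 and 4067 in tdT− libraries. Vehicle libraries held 3755, 4297, 3506 and 2415. All groups overlapped. The log2 difference between tdT− and BLZ945 tdT+ cells was −0.03 with an interval from −0.37 to 0.31, and against vehicle it was 0.21 (−0.13 to 0.56).

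Cd33, whose mouse form carries a basic residue in the membrane and no ITIM by the rule above, held 7040 ± 705 normalised counts in vehicle, 7820 ± 1497 in BLZ945 tdT+ and 7608 ± 953 in tdT− cells (SD, n = 4). The highest library was BLZ945 tdT+ F1 with 9971 and the lowest vehicle F1 with 6193, and all groups overlapped. The log2 difference of tdT− from BLZ945 tdT+ cells was −0.04, with an interval from −0.33 to 0.25. It was 0.15 (−0.13 to 0.44) for BLZ945 tdT+ against vehicle.

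Cd22 and Siglecg are the Siglecs known for restraining the B cell receptor. Cd22 held 1251, 1041, 753 and 767 normalised counts in BLZ945 tdT+ libraries F1, F2, M1 and M2, 743, 298, 772 and 1016 in tdT− libraries and 782, 701, 630 and 477 in vehicle libraries. The lowest value was that of the tdT− library F2. The groups overlapped, and the log2 difference of BLZ945 tdT+ from vehicle cells was 0.56 (−0.14 to 1.26, adjusted p = 0.850, DESeq2) and that of tdT− from BLZ945 tdT+ cells −0.43 (−1.13 to 0.27, adjusted p = 0.691). Gm29439 overlaps Cd22 on the opposite strand. Reads in the shared stretch cannot be told apart, because strand was not used in counting.

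Siglecg was low and uneven, with 0 counts in 4 of the 12 libraries and at most 66.2 normalised counts (vehicle F1). Its intervals spanned more than 8 log2 units in each comparison, and no difference was detected. Of 7 B cell markers Pax5 and Blk were at 0 in all libraries. The list summed to between 918 and 1298 normalised counts in vehicle, 262 and 440 in BLZ945 tdT+ and 648 and 1023 in tdT− libraries, nearly all of it Cd79b. Cd22 was highest on average in the group with the lowest B cell marker sum.

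Among the Cd300 receptors, the inhibitory Cd300a and the activating Cd300c2 were abundant and did not pass the test in any comparison. Cd300a, which binds phosphatidylserine and phosphatidylethanolamine, held 7901, 7666, 6481 and 5402 normalised counts in BLZ945 tdT+ libraries F1, F2, M1 and M2 and 5589, 5271, 8209 and 6487 in tdT− libraries. It was lower in tdT− cells of both F mice and higher in those of both M mice. Vehicle libraries ranged from 5859 to 7602. The log2 difference between tdT− and BLZ945 tdT+ cells was −0.10 (−0.43 to 0.22) and that of BLZ945 tdT+ from vehicle cells 0.06 (−0.27 to 0.38).

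Cd300c2, which pairs with activating adaptors, was slightly higher in tdT− cells of every mouse. It held 5744, 5561, 4901 and 5337 normalised counts in BLZ945 tdT+ libraries and 6211, 5871, 7335 and 5923 in tdT− libraries. These groups did not overlap, as for 4.56% of all genes in this direction. The ratio within a mouse lay between 1.06 and 1.50. The log2 difference was 0.23 with an interval from −0.01 to 0.48 (adjusted p = 0.364, DESeq2), and in no alternative did it pass. Vehicle libraries, from 5060 to 7059, covered most of the range of both other groups.

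Cd300ld is a short-tailed activating receptor, known in mouse also as a receptor of murine norovirus together with Cd300lf. It held 780, 375, 364 and 414 normalised counts in vehicle libraries F1, F2, M1 and M2, 1242, 1217, 771 and 354 in BLZ945 tdT+ and 896, 956, 875 and 457 in tdT− libraries. In BLZ945 mice M2 was lowest in both sorts. The mean was 483 ± 199 in vehicle, 896 ± 421 in BLZ945 tdT+ and 796 ± 229 in tdT− cells (SD, n = 4). The log2 difference of BLZ945 tdT+ from vehicle cells was 0.89 (0.06 to 1.72, unadjusted p = 0.0346) but did not pass over all genes (adjusted p = 0.527, DESeq2). Between tdT− and BLZ945 tdT+ cells it was −0.17 (−0.997 to 0.65). Its near copies Cd300ld2, Cd300ld3, Cd300ld4 and Cd300ld5 did not exceed 25.8 normalised counts in any library, and reads that map to several places were not counted, so the split between these copies is uncertain.

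Cd300lf, an ITIM-bearing receptor that binds ceramide and phosphatidylserine, had counts in all 4 tdT− libraries and in 1 of 4 BLZ945 tdT+ libraries. It held 202, 256, 17.9 and 82.2 normalised counts in tdT− libraries F1, F2, M1 and M2. The BLZ945 tdT+ library F1 held 167 and the other 3 held 0. Vehicle libraries held 76.2, 68.3, 0 and 77.5. The level was higher in the tdT− than in the tdT+ library of each mouse, by 1.21 times in F1. With all 12 libraries the unshrunken log2 fold change was 1.74 with an interval from −2.01 to 5.48 (adjusted p = 0.820, DESeq2). With the mouse as a replicate block the adjusted p was 0.00201 with a shrunken value of 0.09, and without the tdT+ library F1, which leaves a group at 0, it was 2.7e-05. The remaining 17 alternatives did not pass. The highest tdT− value came from library F2, and the part of its neutrophil and monocyte transcripts in that value was not tested.

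Levels between genes were compared as counts per kilobase of exon, scaled to the same total over all genes in every library (TPM). Cd300c2 was the highest member in every group, at 515 ± 61.1 in vehicle, 478 ± 25.4 in BLZ945 tdT+ and 511 ± 49.9 in tdT− cells (SD, n = 4), and above Siglece in all 12 libraries. Siglece followed at 249, 296 and 263, and Cd300a at 183, 192 and 162. Siglece and Cd300a overlapped in vehicle cells, where Siglece was above in 3 of 4 libraries, and were apart in both BLZ945 groups. Cd33 stood at 119, 133 and 118.

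By its mean Siglec1 had rank 5 in vehicle, rank 4 in BLZ945 tdT+ and rank 5 in tdT− cells. It was at 102 ± 13.2 in vehicle and 140 ± 25.5 in BLZ945 tdT+ cells, and its range overlapped that of Cd33 in both. In tdT− cells it was at 39.0 ± 17.5, below Cd33 in all 4 libraries and with a range that overlapped that of Cd300ld at 36.3 ± 10.6. As a share of the 6 Siglecs per length it made up 20.9 ± 2.20% in vehicle, 23.3 ± 2.701% in BLZ945 tdT+ and 8.70 ± 3.78% in tdT− cells, whereas Siglece made up 50.2%, 49.8% and 58.6%. Cd22 lay between 16.9 and 25.02 on average. Siglecf, Cd300lf and Siglecg were the lowest 3 in each group, with overlapping ranges, and Siglecf reached 10.7 ± 5.18 in tdT− cells against 2.11 ± 0.508 in BLZ945 tdT+ cells. Cd300a and Cd300c2 together made up 93.8% to 96.5% of the 4 Cd300 genes in the group means.

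**Figure D3:**
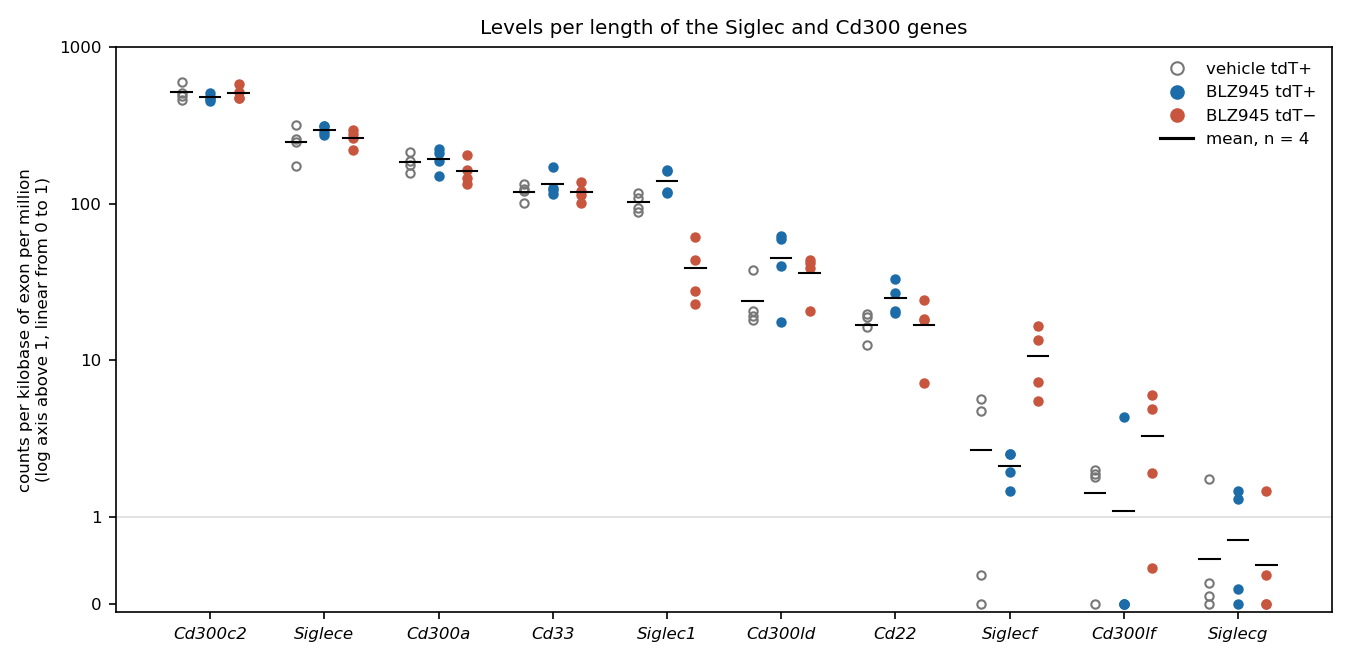
TPM, counts per kilobase of exon scaled to a common total (y axis, logarithmic above 1 and linear from 0 to 1) of the 10 genes in order of their mean. Open grey points are vehicle tdT+, blue BLZ945 tdT+ and red BLZ945 tdT− libraries, black bars are means (n = 4), and points at 0 overlap. Cd300c2 lay between 478 and 515 on average in every group, Siglec1 dropped to 39.0 in tdT− cells, and Siglecf and Cd300lf were low with a wide spread.

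Of 12 other Siglec and Cd300 genes listed, 10 were in the table and 4 passed the filter. By DESeq2 0 of these 4 passed the test in any comparison, with 0 at an unadjusted p under 0.05 and 0 by edgeR. Mag, the myelin-associated glycoprotein and a Siglec of oligodendrocytes next to Cd22 on chromosome 7, held 301 ± 94.1 normalised counts in vehicle, 361 ± 178 in BLZ945 tdT+ and 351 ± 147 in tdT− cells. Cd300lb, an activating neighbour on chromosome 11, held 108 ± 82.3, 44.2 ± 51.3 and 195 ± 133. Cd300lg was at most at 75.2 and Cd300ld3 at most at 25.8 in any library. Siglec15 and Cd300ld5 had 0 counts in all libraries. Cd300e and Cd300c had counts in 1 tdT− library each, at 94.1 and 29.2 normalised counts, and were at 0 in the other libraries.

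The genes that make and place sialic acid, the ligand of Siglecs, moved in both directions. Of all genes 2.86% rose and 3.47% fell in tdT− against BLZ945 tdT+ cells, and 3.27% rose and 3.49% fell in tdT− against vehicle cells. Between the tdT+ groups 8.08% of all genes had an unadjusted p under 0.05 (DESeq2). That share is not given for the tdT− comparisons, so counts of list genes at that p cannot be weighed there. Of 6 synthesis genes 5 were tested, and 1 fell in tdT− cells against both tdT+ groups. This was Cmah, the hydroxylase that turns the acetyl into the glycolyl form of sialic acid. It held between 269 and 566 normalised counts in tdT− libraries, between 888 and 1369 in BLZ945 tdT+ and between 881 and 2022 in vehicle libraries, without overlap between tdT− and tdT+. The shrunken log2 fold change was −1.27 ± 0.32 (SE, adjusted p = 2.51e-04, DESeq2) against BLZ945 tdT+ and −1.67 ± 0.32 (adjusted p = 7.04e-07) against vehicle tdT+ cells. The median unshrunken log2 fold change of the 5 genes was 0.17 against BLZ945 tdT+ cells, beside 0.00 for all genes. Here and for the other lists, the shift of the microglia and sdCAM marker sums between tdT− and tdT+ libraries goes with the tdT− comparisons, and its part was not tested.

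Of 20 sialyltransferases 12 were tested, and 2 rose and 1 fell in tdT− against BLZ945 tdT+ cells. Their median was 0.21. Of the 12, 8 had an unadjusted p under 0.05 (DESeq2), which cannot be weighed without the share of all genes at that p. The groups did not overlap for 5, against 9.35% of all genes. St3gal2, which caps gangliosides and O-glycans, rose from 355 ± 96.4 in BLZ945 tdT+ to 993 ± 121 in tdT− cells, by 1.38 ± 0.28 on the log2 scale (adjusted p = 4.71e-06, DESeq2). St3gal5, the synthase of ganglioside GM3, rose from 513 ± 261 to 1964 ± 699, by 1.64 ± 0.56 (adjusted p = 0.00406), which edgeR did not call (adjusted p = 0.0767). St8sia4, which builds polysialic acid, fell by 0.87 ± 0.26 (adjusted p = 0.00259).

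Against vehicle tdT+ cells 3 of the 12 sialyltransferases rose and 1 fell. These were St3gal5 (2.38 ± 0.53), St3gal2 (1.38 ± 0.28) and St3gal6 (0.66 ± 0.16) upwards and St6gal1 (−0.85 ± 0.26, adjusted p = 0.00326, DESeq2) downwards. St6gal1 makes the linkage that CD22 binds. It held 3222 ± 197 normalised counts in vehicle, 2407 ± 532 in BLZ945 tdT+ and 1642 ± 592 in tdT− cells. In BLZ945 tdT+ cells it lay below all vehicle libraries without passing the test (adjusted p = 0.797, DESeq2). The share of all genes whose groups do not overlap is not given for the tdT+ groups, so this separation cannot be weighed. St3gal6 and St6gal1 overlap another gene on the opposite strand. In BLZ945 tdT+ against vehicle cells 0 of 12 passed by DESeq2 or edgeR, with 2 at an unadjusted p under 0.05. In tdT− against vehicle cells 6 of the 12 lay under that p, where the share of all genes is not given.

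Of 7 genes that remove or break down sialic acid 5 were tested. The sialic acid lyase Npl fell in tdT− against vehicle cells, by 0.57 ± 0.23 on the log2 scale (adjusted p = 0.0411, DESeq2), a call that 10 of 19 alternatives lost. By edgeR Npl did not pass (adjusted p = 0.114). In the other comparisons 0 of the list passed by DESeq2 or edgeR, with 2 at an unadjusted p under 0.05 in tdT− against BLZ945 tdT+ and 0 in BLZ945 tdT+ against vehicle cells. The share of all genes at that p is not given for the former.

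**Figure D4:**
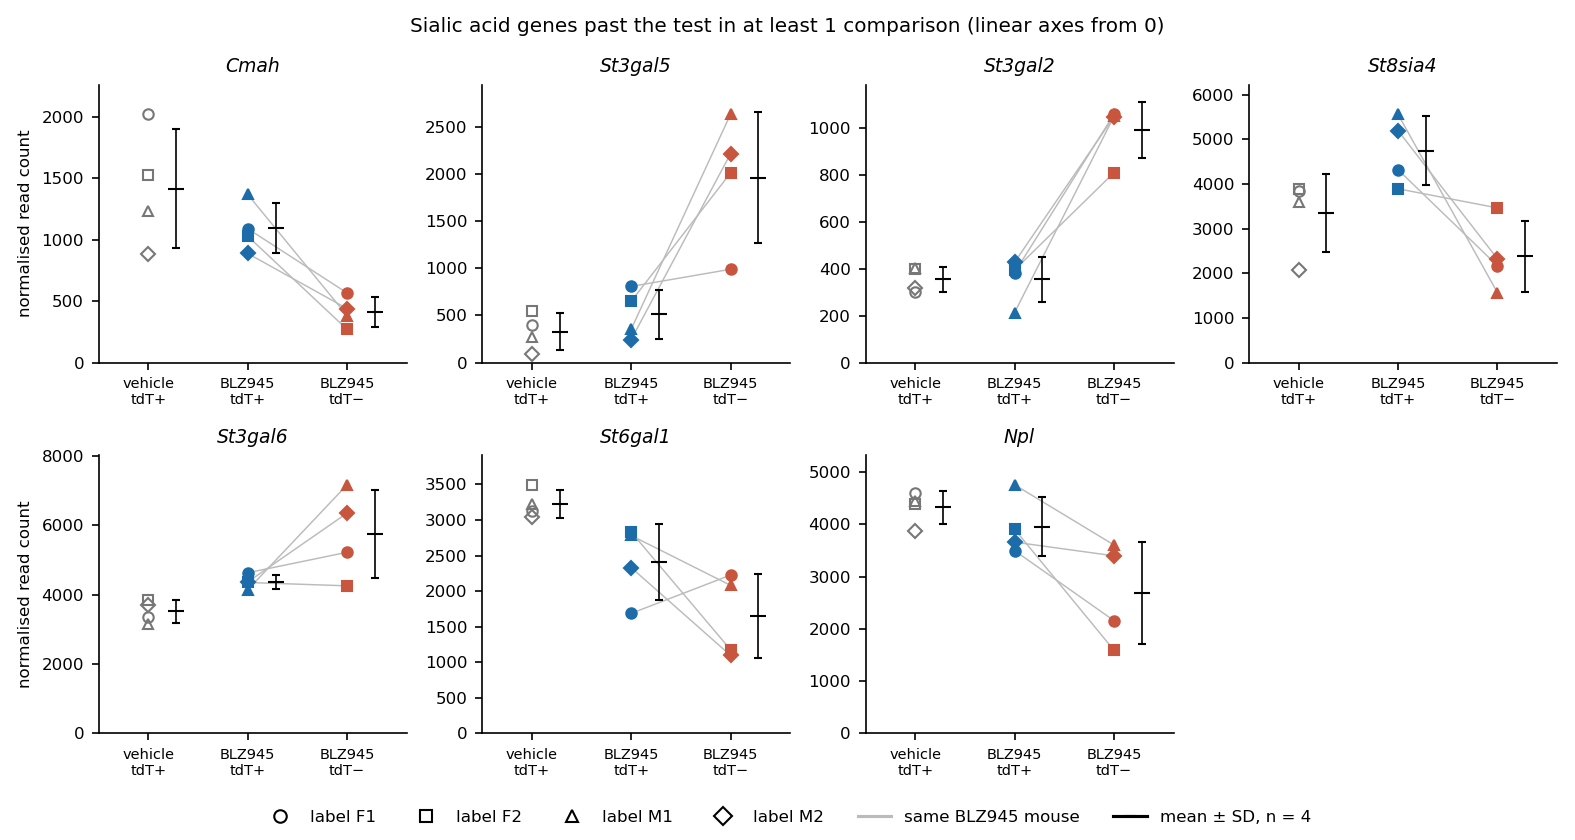
Normalised read count (y axis, linear) of the 7 named sialic acid genes in the 3 groups. Symbols give the mouse label, grey lines join libraries of the same BLZ945 mouse, and black bars are means ± SD (n = 4). The tdT− libraries of Cmah lay between 269 and 566, below all tdT+ libraries, and those of St3gal2 between 811 and 1059.83, above all tdT+ libraries.

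Of the 7 genes on the ITIM side, the phosphatases Ptpn6, Ptpn11 and Inpp5d, the kinase Csk and the adaptors Dok1, Dok2 and Dok3, 0 passed in any of the 3 comparisons by DESeq2 or edgeR. At an unadjusted p under 0.05 there were 1 in tdT− against BLZ945 tdT+, 0 in BLZ945 tdT+ against vehicle and 3 in tdT− against vehicle cells. Without the share of all genes in the tdT− comparisons, these counts and those of the next list cannot be weighed there. Of 11 genes on the ITAM side 0 passed within BLZ945 mice (3 at an unadjusted p under 0.05) or between the tdT+ groups (2), and 3 rose in tdT− against vehicle cells. Among them were Lyn and Fyn, Src family kinases that phosphorylate both kinds of motif. Lyn rose by 0.46 ± 0.12 (adjusted p = 0.00149, DESeq2), from 9841 ± 1190 to 13794 ± 1741 normalised counts. Fyn, which overlaps another gene on the opposite strand, rose by 1.30 ± 0.60 (adjusted p = 0.0233, DESeq2). This call was lost in 7 of 19 alternatives, and edgeR called 0 of the 11 genes. The median of the 11 genes against vehicle was 0.17, beside 0.03 for all genes.

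Of 19 other paired and inhibitory receptors of myeloid cells 16 were tested, and 2 rose and 2 fell in tdT− against BLZ945 tdT+ cells, with a median log2 fold change of 0.66. The collagen receptor Lair1 rose from 6796 ± 731 to 11887 ± 1822 normalised counts (0.78 ± 0.13, adjusted p = 1.61e-08, DESeq2), and the lipid receptor Trem2 from 12900.4 ± 1221 to 22522 ± 5391 (0.75 ± 0.15, adjusted p = 5.42e-06). Cd200r1, the receptor of the inhibitory ligand CD200, fell from 3118 ± 855 to 1069.86 ± 174 (−1.47 ± 0.23, adjusted p = 1.04e-09). The microglia marker sum was higher and the sdCAM marker sum lower in every tdT− than in every tdT+ library, and their part in these changes was not tested.

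Lilrb4a fell by 1.15 ± 0.63 (adjusted p = 0.0421, DESeq2), a call that 9 of 19 alternatives lost, with adjusted p up to 0.189. These included edgeR (adjusted p = 0.150) and the mouse as a replicate block (−1.02, adjusted p = 0.0576). Lilrb4a overlaps Gm49339 on the same strand, so its reads are uncertain. In tdT− against vehicle cells Lair1 and Trem2 rose (1.17 ± 0.13 and 0.93 ± 0.15) and Cd200r1 fell (−1.23 ± 0.23). Lair1, Trem2 and Cd200r1 passed in all 19 alternatives of both comparisons. Between the tdT+ groups 0 of 16 passed by DESeq2 or edgeR, with 5 at an unadjusted p under 0.05. Under that p lay 7 in tdT− against BLZ945 tdT+ and 6 in tdT− against vehicle cells, where the share of all genes is not given.

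Of 9 genes of lipid handling, which include ligand-side and scavenger genes beside the lipid-binding Cd300 receptors, 1 fell in tdT− cells against both tdT+ groups and none rose. This was the scavenger receptor Cd36, at 17318 ± 3189 normalised counts in vehicle, 11547 ± 1946 in BLZ945 tdT+ and 6326 ± 3109.93 in tdT− cells. It fell by 1.37 ± 0.26 against vehicle (adjusted p = 5.13e-07, DESeq2) and by 0.75 ± 0.26 against BLZ945 tdT+ cells (adjusted p = 0.0122), the latter call being lost in 8 of 19 alternatives. Between the tdT+ groups 0 of 9 passed by DESeq2 or edgeR, with 2 at an unadjusted p under 0.05. Under that p lay 6 in tdT− against BLZ945 tdT+ and 3 in tdT− against vehicle cells, where the share of all genes is not given. No member's effect differed between mice labelled F and M after adjustment (edgeR interaction test, lowest adjusted p of 0.737). Cd300a came nearest, with a difference between M and F mice of 0.81 on the log2 scale in tdT− against BLZ945 tdT+ cells (unadjusted p = 0.00957).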

How the data were processed

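RNA was amplified with SMART-Seq. According to the submitters' processing notes, reads were aligned with STAR 2.7.11a and the authors deposited whole-number counts per gene symbol from featureCounts 2.0.6, on GENCODE M33 (GRCm39), unstranded and without multi-mapping reads. One column carries the label of another library and was assigned by its library number. A gene was left out when 9 of its 12 libraries or more (75%) lay under 10 counts. DESeq2 1.42.0 (two-sided Wald test, group only, all 12 libraries, apeglm 1.24.0 shrinkage, Benjamini-Hochberg over all genes) was the main test, and the model and edgeR 4.0.16 were tested on simulated data. Normalised counts are counts divided by median-of-ratios size factors. Intervals are 95% Wald intervals of the unshrunken fold change.

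Named genes are the 10 members and, per list, comparison and direction, at most 3 genes past the test with the largest fold change and a mean of at least 100 normalised counts. Members, lists and tests were chosen with earlier results of these data known. Alternatives were edgeR with TMM, TMM inside DESeq2, no filter, the 8 libraries compared, the mouse label as a replicate block, the letter as a covariate, unshrunken fold changes and leaving out each library. Unshrunken fold changes keep the p-values of the main fit, so a call by adjusted p cannot change there. BLZ945 libraries of the same label are from the same mouse, by the labels. Their deviations from group means correlated by −0.00 to 0.04 across genes (log2 of normalised count + 1), on average 0.01. Chi-square per degree of freedom was at least 45.9 in all 18 replicate pairs, so no library repeats another. Values of some single genes in the lists are not reported here.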

Additional observations from a re-analysis of the deposited data

Results flagged for a closer look

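Of 30 sets of 4 libraries, each 1 member in 1 group, 5 held a library far from the other 3 by Dixon's test, which chance gives in about 1 of 20 sets. Vehicle library F1 was the highest of its group for Siglecg (66.2 normalised counts) and for Cd300ld (780). The tdT− library M2 was the lowest of its group for Cd300ld (457). Cd300lf had 0 in vehicle library M1, where the others lay between 68.3 and 77.5, and 167 in BLZ945 tdT+ library F1, where the others were at 0. Siglecg and Cd300lf each had 0 counts in 4 of 12 libraries.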

How the results depend on the processing

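Members past the test in tdT− against BLZ945 tdT+ cells numbered 1, but 2 on the 8 libraries compared and 3 with the mouse as a replicate block (Siglec1, Siglecf and Cd300lf), and between 1 and 2 without 1 library. With the block 7.13% of all genes passed in this comparison. Shares of all genes under the other alternative settings are not given, so the member counts there and below cannot be weighed. Members called DEGs in this comparison numbered 1, but 2 on the 8 libraries and 2 with the block, and between 1 and 2 without 1 library, the second being Siglecf without vehicle M2 and Cd300lf without BLZ945 tdT+ F1. In BLZ945 tdT+ against vehicle cells 0 members passed, but 1 with the replicate block (Siglec1, 0.37, adjusted p = 0.0261, DESeq2) and between 0 and 1 without 1 library (Cd300lf without BLZ945 tdT+ F1). In tdT− against vehicle cells 1 passed, but 2 with the block (Siglecf, adjusted p = 0.0382), and DEGs lay between 0 and 1 without 1 library (0 without tdT− M2). In comparisons with vehicle the labels mark different mice and the block pairs nothing. Deviations of same-labelled libraries there correlated by −0.02 to 0.05, and not every library correlated best with its own label. By the adjusted p, members stayed on the same side of 0.05 in 185, 188 and 189 of 190 alternatives in the order above, and none past the test changed sign. These include the unshrunken fold change of each member, whose adjusted p is that of the main fit. The size of a fold change could still cross 1, as for Siglecf in tdT− against BLZ945 tdT+ cells (0.17 shrunken, 2.48 unshrunken and 2.45 by edgeR, not past the test in any of these) and for Siglec1 against vehicle (−0.998 without tdT− M2). Signs differed, or a value rounded to 0, in 8, 13 and 9 cases where neither value passed. For Cd300lf DESeq2 gave no adjusted p in 1 alternative. Levels per length moved by less than 1 SD in all 150 alternatives. Siglecg and Cd300lf each had 0 counts in 4 of 12 libraries, and their intervals are wide. Each p-value of the main test uses 1 estimate of a gene's spread over all 12 libraries, including those of the group not compared. It leaves out that both BLZ945 groups come from the same 4 mice.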
